A study of Mus musculus with 24 samples.

Results

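Of the 2873 regions whose CpG methylation differed in LiNKT cells between NOD mice given αGalCer/CD1d-NPs and those left untreated, 227 started from a mean below 50% in untreated cells and were lower still after treatment. These 227 regions are described here. They were chosen by exactly these measured values (an untreated mean below 0.5 as a fraction, and a treated mean below the untreated one), so that their loss of methylation is a description and was not tested. In all, 1983 regions lost methylation, of which 579 started from 50 to below 80% and 1177 from 80% or more, and 890 gained it.

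LiNKT cells are invariant natural killer T cells resident in the liver, sorted here as live cells with intermediate TCRβ staining that bound αGalCer/CD1d tetramers. NOD mice are a strain in which autoimmune diabetes arises without manipulation. The particles (αGalCer/CD1d-NPs) are coated with CD1d molecules that carry the glycolipid αGalCer, the ligand of the invariant TCR, and treated mice were given 2 doses per week for 5 weeks, each dose with 20 µg of protein. Whole genome bisulfite sequencing, which reads methylated cytosines as C and unmethylated ones as T, was done on cells from 7 untreated female mice at 17 weeks and from 4 treated mice at 16 weeks, whose sex the methods do not state. Treatment and age differ together in this comparison and cannot be told apart. Chromatin fragments came from 5 untreated and 4 treated male mice of 13 to 15 weeks, and SmartSeq2 gene counts of single cells from 3 untreated and 3 treated male mice of the same ages. The deposited tables hold 1 value per group for methylation, 1 table of cells per group for SmartSeq2, and 1 table of fragments for both chromatin libraries. No comparison between the groups therefore has replicates, and no p-value is given.

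Methylation of the cytosine in CpG dinucleotides is copied at each cell division by DNMT1 onto the new strand, and is lost when copying fails or when TET enzymes oxidize it. Promoters and enhancers that a cell lineage uses are usually unmethylated in it, and methylated in lineages that do not use them. In T cells, the genes of the CD3 complex and of proximal T cell receptor (TCR) signalling belong to the first kind; in iNKT cells, so do the genes of PLZF (Zbtb16), the transcription factor that sets their innate-like program, and of T-bet (Tbx21), which drives interferon-γ (Ifng) in the NKT1 subset.

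The stretches of reference sequence below stand for the kinds of gene described further on: the TCRβ joining segments, CD3δ, the kinase ZAP-70, T-bet, interferon-γ, PLZF and the vitamin D receptor. Each stretch holds the 300 bases with most CpGs, outside annotated UTRs, of the region with the largest loss at that gene, and is written 5′ to 3′ on the plus strand of GRCm38, the build to which the reads were aligned. CpGs are in capitals. The sequences are those of the reference strain, and NOD alleles can differ from it at single bases. They lie at chr6:41534227-41534526 (over the coding exon of Trbj1-3), chr9:44982005-44982304 (intron of Cd3d), chr1:36762031-36762330 (intron of Zap70), chr11:97108997-97109296 (intron of Tbx21), chr10:118441386-118441685 (intron of Ifng, overlapped by an exon of the unclassified transcript model Gm49751), chr9:48830488-48830787 (intron of Zbtb16) and chr15:97892157-97892456 (intron of Vdr).
Trbj1: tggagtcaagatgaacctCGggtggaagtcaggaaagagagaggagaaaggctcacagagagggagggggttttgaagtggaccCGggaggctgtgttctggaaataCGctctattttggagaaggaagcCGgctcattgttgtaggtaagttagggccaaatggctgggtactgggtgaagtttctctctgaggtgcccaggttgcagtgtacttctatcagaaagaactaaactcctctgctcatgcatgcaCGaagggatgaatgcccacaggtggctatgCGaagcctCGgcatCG
Cd3d: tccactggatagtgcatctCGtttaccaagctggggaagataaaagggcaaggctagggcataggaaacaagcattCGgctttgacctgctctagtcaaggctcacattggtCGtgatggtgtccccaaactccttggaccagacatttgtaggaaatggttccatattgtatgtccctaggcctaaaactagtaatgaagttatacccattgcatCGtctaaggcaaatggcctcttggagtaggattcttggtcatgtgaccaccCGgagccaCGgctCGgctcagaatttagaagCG
Zap70: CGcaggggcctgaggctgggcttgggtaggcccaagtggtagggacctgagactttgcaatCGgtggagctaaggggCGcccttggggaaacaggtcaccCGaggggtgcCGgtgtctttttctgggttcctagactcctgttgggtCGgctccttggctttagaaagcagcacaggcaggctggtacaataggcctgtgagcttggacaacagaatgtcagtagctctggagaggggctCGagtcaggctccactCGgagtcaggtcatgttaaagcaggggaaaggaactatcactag
Tbx21: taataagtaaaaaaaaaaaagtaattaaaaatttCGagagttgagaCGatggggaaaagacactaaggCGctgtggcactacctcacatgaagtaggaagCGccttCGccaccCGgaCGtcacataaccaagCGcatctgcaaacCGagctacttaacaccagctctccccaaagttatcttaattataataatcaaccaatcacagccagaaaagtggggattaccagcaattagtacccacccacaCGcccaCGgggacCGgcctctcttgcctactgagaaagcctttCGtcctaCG
Ifng: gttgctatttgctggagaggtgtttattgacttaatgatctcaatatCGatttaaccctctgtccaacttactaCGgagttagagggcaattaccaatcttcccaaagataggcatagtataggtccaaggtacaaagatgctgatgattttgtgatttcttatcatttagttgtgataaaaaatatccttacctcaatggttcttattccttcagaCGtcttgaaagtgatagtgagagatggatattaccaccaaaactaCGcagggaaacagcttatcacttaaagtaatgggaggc
Zbtb16: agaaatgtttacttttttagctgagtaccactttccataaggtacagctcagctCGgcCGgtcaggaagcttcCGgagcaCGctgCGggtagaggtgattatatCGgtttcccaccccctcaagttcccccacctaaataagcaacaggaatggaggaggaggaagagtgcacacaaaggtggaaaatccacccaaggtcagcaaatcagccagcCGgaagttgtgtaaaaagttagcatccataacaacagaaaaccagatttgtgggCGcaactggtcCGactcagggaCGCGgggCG
Vdr: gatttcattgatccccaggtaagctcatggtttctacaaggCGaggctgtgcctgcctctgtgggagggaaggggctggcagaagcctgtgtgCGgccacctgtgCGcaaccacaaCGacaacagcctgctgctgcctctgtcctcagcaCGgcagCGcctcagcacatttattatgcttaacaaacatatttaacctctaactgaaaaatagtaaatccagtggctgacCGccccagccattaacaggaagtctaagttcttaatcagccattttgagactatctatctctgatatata
Both cytosines of every CpG in these stretches were measured, and at Ifng and Vdr also one of a CpG cut by the first base. In the Zap70 stretch, 16 cytosines of 8 CpGs had between 7 and 30% methylation in untreated cells (median 18.5%) and between 0 and 6% in treated cells (median 0%). In the Cd3d stretch the 16 cytosines lay between 4 and 22% (median 12.5%) and between 0 and 6% (median 0%), respectively. Both stretches were low in untreated cells and near 0 in treated cells. The 28 cytosines of the Tbx21 stretch went from 14 to 54% (median 23%) to 0 to 7% (median 3%), and the 24 of the Zbtb16 stretch from 4 to 23% (median 11.5%) to 0 to 4% (median 1.5%). The Ifng stretch has only 4 CpGs; its 9 measured cytosines were at 20 to 78% (median 44%) and at 0 to 26% (median 3%). Vdr was the least complete: its 15 cytosines had a median of 52% in untreated cells (18 to 79%) and of 21% in treated cells (2 to 49%). In the Trbj1 stretch, the range of 16 cytosines went from 17 to 81% (median 35%) to 0 to 10% (median 0%).

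Over the 227 regions, the median methylation was 27.1% in untreated cells (from 4.01 to 49.9%) and 8.12% in treated cells (from 0.104 to 34.2%), a median difference of -17.1 percentage points. Untreated levels were not spread evenly. Only 2 regions lay below 10%, 76 between 10 and 20%, 43 between 20 and 30%, 41 between 30 and 40%, and 65 between 40 and 50%. After treatment, 35 regions were below 2% and another 50 between 2 and 5%. The 85 regions below 5% in treated cells had a median of 16.4% in untreated cells, and the median SD between cytosines of one region was 6.27 points there; the other 142 regions had a median of 37.7% and an SD of 14.6 points. Regions were called by their change in methylation. In most of the 227 the fall was 11.4 points or more, and a region that starts low has little room for such a fall. Smaller falls were also called, of 3.18 points at Vmp1 and 4.36 points at Prdm1. The spread of untreated levels and the low starts of the 85 regions may depend on the call. How far it sets them was not tested. The read depth behind these fractions is unknown.

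**Figure D1:**
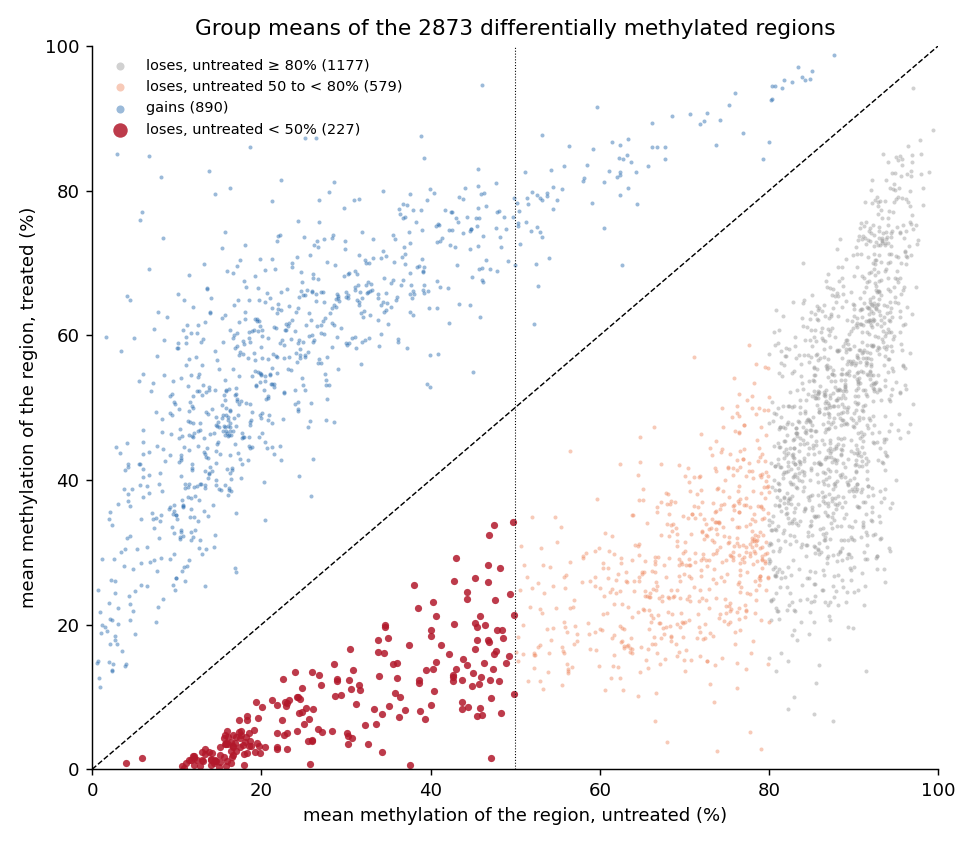
Mean methylation of each of the 2873 regions in untreated (x axis, %) and treated cells (y axis, %), 1 point per region; the dashed line marks equal values and the dotted line the limit of 50%. The 227 regions (dark red) lie between 4.01 and 49.9% on the x axis and between 0.104 and 34.2% on the y axis, with 76 of them between 10 and 20% in untreated cells.

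The limit of 50% cuts through a continuous distribution. The 5 regions just inside it had untreated means of 49.3 to 49.9% and treated means of 10.4 to 34.2%: they lie at Wipf1, Arhgef28, Mthfd1 and Vdr, and at chrY:90829081-90829305. The untreated mice were female and the sex of the treated mice is not stated, so that reads placed at the last of these in untreated cells cannot be specific to chromosome Y. The 5 just outside had 50.1 to 50.7% and 15.0 to 30.8%, at D430001F17Rik, Tlr1, Gm40608, Cyth1 and H2-Q7.

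Of 38 genes of the TCR complex, its co-receptors and its signalling cascade, 14 had one of the 227 regions in the gene body or within 2 kb of the transcription start site (TSS); 7 had a region that lost methylation from 50 to below 80%, 8 one that lost it from 80% or more, and 3 one that gained it. These are 36.8, 18.4, 21.1 and 7.89% of the list, and over all 21897 protein-coding genes the shares with such a region were 0.722, 1.48, 2.72 and 2.64%. This list and those below were chosen with earlier results of these data known. Of the 21897 genes, 11505 had no count in untreated cells, so that they are an unlike set. The shares of all lists are therefore descriptions only. The 16 regions at these 14 genes had a median of 17.2% in untreated (11.9 to 43.7%) and of 2.64% in treated cells (at most 29.2%).

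Zap70 encodes the kinase that binds the phosphorylated CD3 and ζ chains. Its 3 regions, at the TSS (chr1:36761217-36761931), in the first intron (chr1:36762031-36762342) and 2461 bp downstream of the TSS (chr1:36764259-36764732), had 15.6, 16.4 and 11.9% in untreated cells, and 1.75, 0.890 and 1.82% in treated cells. The region at the start of Cd3d, which is also within 2 kb of the TSS of Cd3g on the other strand (chr9:44981814-44982617), went from 15.1 to 1.03%, and a second one in Cd3d (chr9:44984153-44985669) from 15.7 to 4.72%. Both genes encode chains of the CD3 complex, as does Cd3e, with 18.5 and 3.15% in its intron (chr9:45007405-45007758). The values of these CD3 genes and of Zap70 were close to each other in each group.

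Other regions lay at genes acting below the receptor. Lcp2 encodes the adaptor SLP-76, and had 14.1% in untreated and 0.579% in treated cells. There, the highest cytosine in treated cells (2%) was below the lowest in untreated cells (6%). Fyn, a Src-family kinase, had 18.7 and 3.97%, and Ptpn22, a phosphatase that restrains TCR signals, 17.9 and 2.14%. Skap1, an adaptor of integrin activation outside the list, had 13.8 and 2.33% near a TSS.

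Other members of the group kept more methylation. Lck encodes the kinase that phosphorylates CD3 and ζ, and its region (chr4:129570133-129571527) had 38.0% in untreated and 25.4% in treated cells; Cd247, the gene of the ζ chain, had 43.0 and 29.2%. In both, single cytosines spread widely in treated cells (0 to 74% at Lck and 0 to 78% at Cd247), as the plot of single cytosines shows. They did so in untreated cells as well (7 to 83% at Lck and 7 to 93% at Cd247). Ubash3a, a regulator of TCR signals, had 24.0 and 13.4%. Pdcd1, the gene of the inhibitory receptor PD-1, had 43.7 and 8.32% in a region upstream of its TSS (chr1:94053268-94053826).

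**Figure D2:**
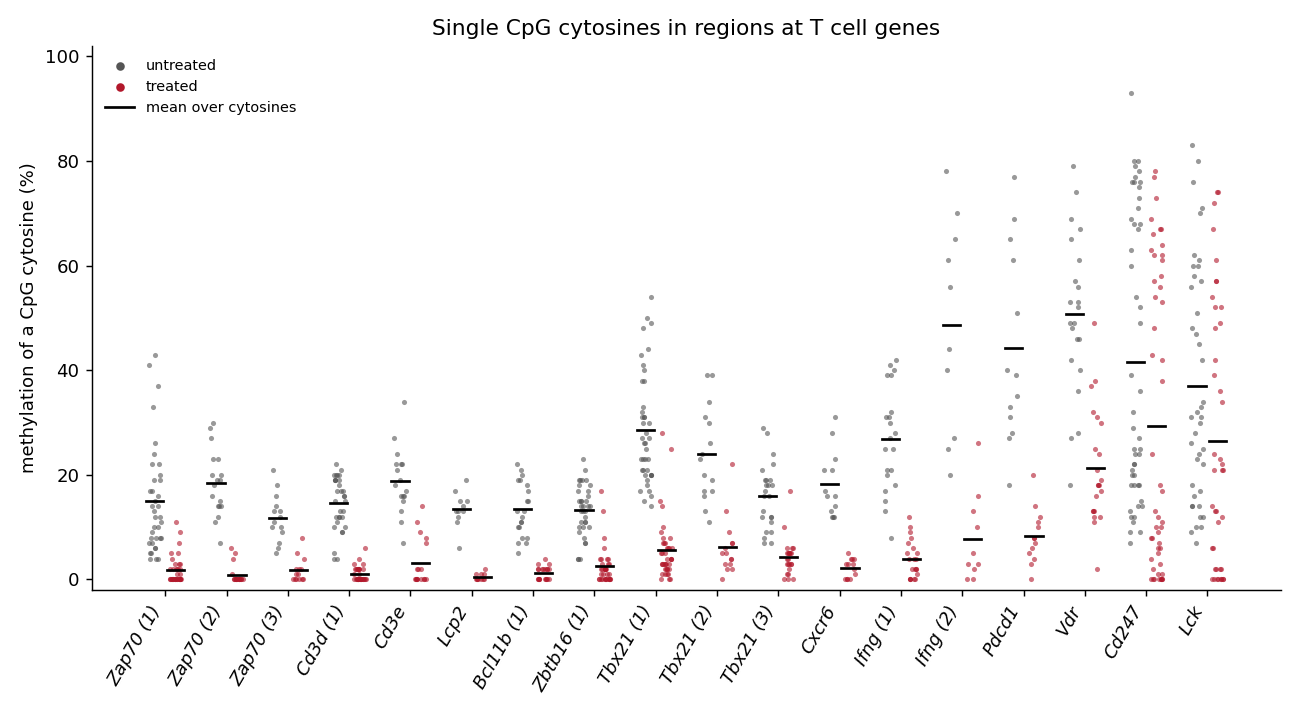
Methylation (y axis, %) of single CpG cytosines in 18 regions at named genes (x axis), with untreated values in grey, treated values in red and the mean over cytosines as a bar; numbers in brackets order the regions of a gene by position. At Lcp2 the treated cytosines lie at 0 to 2% and the untreated ones at 6 to 19%. At Lck the treated ones spread from 0 to 74% and the untreated ones from 7 to 83%.

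The TCR loci themselves held 8 of the regions. These loci are rearranged in T cells: DNA between the joined segments is deleted, so that such DNA is read only from alleles, or cells, that still carry it. The region with the largest difference of all 227 covers Trbj1-1 to Trbj1-3 (chr6:41533480-41534526), with 47.1% in untreated and 1.53% in treated cells, and 31 cytosines at 17 to 100% and 0 to 10%, respectively. Its neighbours upstream of Trbd1 (chr6:41531947-41532828) and at Trbj1-7 (chr6:41535499-41535802) had 34.2 and 2.42%, and 25.7 and 0.741%. The one between the Trbj2 cluster and Trbc2 (chr6:41544026-41545277) had 14.1 and 1.21%. At the TCRα locus, Traj18 encodes the joining segment of the invariant chain. A region upstream of it (chr14:54198597-54198816), on DNA that a rearrangement to Traj18 removes, went from 39.4 to 6.95%. The 3 regions downstream of it had 27.1 and 11.6% (chr14:54201565-54202708), 18.1 and 3.82% (chr14:54211197-54211622), and 30.8 and 13.7% (chr14:54220024-54220285, close to Trac).

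A group mean does not separate a loss of methylation within cells from fewer cells that carry methylated copies, and these cannot be told apart here. In the SmartSeq2 cells, sorted singly from other mice, the T and iNKT markers Cd3e, Trac, Zbtb16, Tbx21, Il2rb and Nkg7 summed to 7516 CPM (counts per 1000000 counts of the group) in untreated and 7177 in treated cells. Within the sum, Il2rb (2042 and 1324 CPM), Trac (1043 and 1019) and Tbx21 (463 and 432) were lower in treated cells. Nkg7 (3588 and 3933), Cd3e (335 and 398) and Zbtb16 (45.7 and 71.9) were higher. Of 15 markers of hepatocytes, B cells, macrophages, endothelium and neutrophils, untreated cells had reads on Cd79a (0.0116 CPM), C1qa and Csf1r (0.00580 CPM each) and Pecam1 (1.05 CPM), with the other 11 at 0. Treated cells had 1793 CPM over the 3 macrophage markers (Lyz2 in 11 of 251 cells), 82.3 CPM over the 4 hepatocyte markers (3 cells) and 24.4 CPM over the 3 endothelial ones, with B cell and neutrophil markers at 0. None of these 15 genes had one of the 227 regions. At 0.722% of all protein-coding genes, a list of this size cannot show a lower share. Regions at Ighm, Spi1 and Irf8, genes used in B or myeloid cells and chosen after their values were seen, gained methylation, from 39.9 to 80.2%, from 16.6 to 46.7% and from 20.4 to 53.7%. At Pecam1, an endothelial gene among the 15 markers, 1 region gained methylation (43.9 to 78.8%) and 3 lost it from above 80% (90.5 to 53.3%, 91.9 to 54.0% and 87.6 to 47.98%). Whether other cells in the bisulfite samples had a part in the values was not tested.

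Of 46 transcription factor genes of iNKT and T cells, 9 had one of the 227 regions: Zbtb16, Tbx21, Prdm1, Bcl11b, Bhlhe40, Ets1, Stat4, Nfatc1 and Vdr. The other classes reached 12 (from 50 to below 80%), 13 (80% or more) and 13 genes (gain). Of the list, 19.6% thus had one of the 227 regions and 26.1, 28.3 and 28.3% one of the other classes, beside the shares of all protein-coding genes given above. The 14 regions at these 9 genes had a median of 22.2% in untreated (5.91 to 49.9%) and of 4.78% in treated cells (1.16 to 28.3%).

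Zbtb16 had 2 regions, in an intron (chr9:48830456-48831318) with 13.0 and 2.44%, and over a coding exon (chr9:48831587-48832404) with 19.4 and 9.30%. The 3 regions of Tbx21 lie in introns at 1462 to 6520 bp from the TSS: 15.7 and 3.50% (chr11:97113006-97113869), 25.1 and 6.25% (chr11:97111162-97111888), and 26.6 and 5.55% (chr11:97108811-97109674). No region of another class was paired with Zbtb16 or Tbx21. Both regions of Ifng adjoin each other. The first spans the TSS and exon 1 (chr10:118440997-118441385) with 26.0 and 3.89%, and the second the intron after it (chr10:118441386-118441727) with 48.3 and 7.77%. Ifng was the 1 gene of 21 cytokines and chemokines with such a region.

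Bcl11b, which keeps T cells in their lineage, had 11.7 and 1.28% and 14.6 and 1.16% in 2 intronic regions. Bcl11b also had 1 region that gained methylation. Ets1 and Stat4, the latter the factor that carries interleukin-12 signals, had 12.0 and 1.54%, and 26.0 and 4.01%, respectively. Prdm1 (Blimp-1) had the second lowest untreated level of all by region means (5.91 and 1.54%). The mean over its single cytosines was 9.56% in untreated cells. Nfatc1, a calcium-dependent factor of TCR signals, had 31.5 and 11.6% in an intronic region close to the TSS and 36.4 and 10.0% in another. Bhlhe40, a repressor of the clock family, had 46.8 and 28.3% over exons with coding and untranslated sequence, and Vdr 49.9 and 21.3% in an intron (chr15:97892157-97892635). The printed values of Bcl11b and Ets1 lay below the medians of the regions at TCR signalling genes (17.2 and 2.64%) in both groups, and those of Vdr and Bhlhe40 above them.

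Among receptors, Il2rb, the β chain of the interleukin-2 and -15 receptors, had 21.8 and 5.07% upstream of its TSS, and Il21r 16.6 and 4.67% (2 of 19 cytokine receptor genes). Cxcr6, the chemokine receptor that keeps NKT cells in liver sinusoids, had 18.3 and 2.31% at its TSS (chr9:123806209-123806750). The integrin genes Itga4, Itgb1 and Itgb2 had 31.1 and 9.03%, 46.4 and 14.7%, and 46.8 and 25.9%. Together with Cxcr6 they are the 4 of 23 chemokine receptor, adhesion and retention genes with a region. Slamf1, a SLAM receptor of the kind that selects iNKT cells in the thymus, had 48.5 and 18.2% and was the 1 of 23 NK receptor and SLAM family genes. Of 19 genes associated with T-regulatory type 1 cells, 4 had one of the 227 regions (Prdm1, Pdcd1, Vdr and Itga4), 8 had one that lost methylation from 50 to below 80%, 14 one from 80% or more, and none one that gained it. These are 21.1, 42.1, 73.7 and 0% of the list, beside 0.722, 1.48, 2.72 and 2.64% of all protein-coding genes. The lists of 12 cytotoxic granule genes and 8 genes of DNA methylation enzymes held none with one of the 227 regions; at 0.722% of all genes, lists of this size cannot show a lower share.

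Apart from the TCR and Ifng regions above, the 10 largest losses were at Mthfd1 (49.9 and 10.4%), Inpp4b, a lipid phosphatase (47.1 and 9.85%), Actb (37.5 and 0.564%), Entpd1, which encodes the ectonucleotidase CD39 (44.4 and 8.63%), at the non-coding 1700126H18Rik (45.5 and 7.41%), and at 3 places between genes on chromosomes 6, 9 and 17. For Actb, the β-actin gene, the mean over the 22 cytosines of the site table was 21.5% in untreated cells, below the 37.5% of the region table. By cytosine means Actb had rank 84 of the 227 losses, in place of rank 8 by the region table, and 6 of the 10 largest losses remained among the 10 largest. Table and cytosine means differed by over 5 points in untreated cells in 7 of the 227 regions, with a median gap of 1.24 points. The lowest untreated levels were at Vmp1, in a region that begins upstream of the microRNA gene Mir21a, within 2 kb of its start (4.01 and 0.836%), and at Prdm1, Spata13 (10.7 and 0.499%), Gm14029 (10.85 and 0.104%) and Tbc1d10a (11.0 and 0.907%). By cytosine means the untreated levels were 7.67% at Vmp1 (52 cytosines), 8.23% at Gm14029 and 9.56% at Prdm1 (39 cytosines), so that the order changed. The longest region, at 2010111I01Rik, had 5374 bp and 170 cytosines in the region table (means of 45.3 and 26.5%). The site table holds 157 cytosines there, which lay between 0 and 100% in untreated cells. Most cytosines after it had Pmaip1, the gene of the pro-apoptotic protein NOXA (108 cytosines, 33.7 and 16.2%), Vmp1 (93), Zfp648 (66, with 28.7 and 10.1%) and D13Ertd608e (60, with 36.1 and 14.7%).

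The 227 regions were paired with 232 genes, of which 158 are protein-coding, and 42 regions lay at no gene. Of the protein-coding genes, 11 had at least 2 such regions, among them Runx2, Tbx21 and Zap70 with 3 each. Runx2, a factor of osteoblasts and T cells outside the lists, was named after its values were seen (23.3 and 9.55%, 16.9 and 4.47%, and 24.3 and 9.98%). Runx2 also had 1 region of each of the other classes. Of the 158 genes, 58 also carried a region that lost methylation from a higher level, and 35 one that gained it. Wwox, a gene of great length, had 2 of the 227 regions next to 4 that lost methylation from 50 to below 80%, 13 from 80% or more and 3 that gained it.

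Single cytosines were followed within the regions. Of 5067 CpG cytosines, 4935 (97.4%) were lower in treated cells, 99 were higher and 33 equal, and in 173 regions every cytosine was lower. The regions were chosen by a lower treated mean, which largely sets these counts. The share at 0 went from 0.513 to 18.7%. Cytosines that started at 0 to 10% had a mean of 1.67 ± 2.42% in treated cells (SD, n = 457 cytosines), those at 10 to 20% 3.12 ± 4.03% (n = 1461), those at 20 to 40% 8.50 ± 6.82% (n = 1883), those at 40 to 60% 18.1 ± 11.8% (n = 805), those at 60 to 80% 32.9 ± 18.9% (n = 285) and those at 80 to 100% 61.5 ± 21.9% (n = 176). In regions that started at 50 to below 80%, cytosines of the same starting levels had treated means of 22.1 ± 24.97% (n = 105), 7.45 ± 11.6% (n = 85), 13.2 ± 14.9% (n = 743), 19.5 ± 12.1% (n = 2106), 29.2 ± 15.4% (n = 4289) and 45.9 ± 21.2% (n = 4214). These were higher than in the 227 regions up to a start of 60% and lower above it. Classes and starting levels were both cut from the untreated values that the rule used. How far this sets the order was not tested. Along a region the values changed little: in 5 equal parts, from the first to the last, the means were 29.9, 26.6, 29.9, 29.5 and 32.2% in untreated, and 10.8, 8.60, 10.7, 11.1 and 13.6% in treated cells. Both strands gave the same picture (30.01 and 11.1% on the plus, 29.6 and 11.0% on the minus strand), with a median gap between the 2 cytosines of a CpG of 6 points in untreated and 3 in treated cells. For cytosines outside CpGs, the median over regions of the mean per region was 1.57% in untreated and 1.65% in treated cells.

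Place and base composition were not used by the rule. Within 2 kb of a TSS lay 64 of the 227 regions (28.2%, exact binomial 95% interval 22.4 to 34.5), against 15.0% of the regions that lost methylation from 50 to below 80%, 9.43% of those from 80% or more and 17.2% of those that gained it. Counted within 2 kb upstream of a TSS only, the shares were 16.3, 6.91, 5.18 and 9.10%. For protein-coding TSSs the shares were 17.6, 7.94, 3.74 and 6.97%. The median distance to a protein-coding TSS was 15163 bp, against 29893, 37380 and 25940.5 bp. In a gene body lay 174 regions (76.7%, 70.6 to 82.0), against 70.1, 72.4 and 80.6%. These intervals cover counting error only. In length (median of 426 bp, 201 to 5374), the 227 regions stood beside medians of 434, 377 and 393.5 bp in the other classes, in the same order. The median CpG density was 2.11 CpGs per 100 bp (95% interval of the median from order statistics 1.99 to 2.27), against 1.89, 1.95 and 2.24. The median GC content was 47.3% (46.3 to 48.3), against 46.5, 45.3 and 51.1%, and thus between those of the losing and the gaining regions. The ratio of observed to expected CpGs was 0.379, against 0.363, 0.391 and 0.361. The most CpG-dense of them, at Zfp648, had 7.93 CpGs per 100 bp.

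Short motifs of transcription factors were looked for in the 300 bp at each region's centre, on both strands. The T-box motif GGTGTGA was present in 24 of the 227 (10.6%, 6.89 to 15.3), against 5.35, 5.86 and 5.06% of the regions that lost methylation from 50 to below 80% or from 80% or more, or gained it, and 3.98% of 32851 RefSeq promoters of the same length (GRCm38.p6). The AP-1 motif TGANTCA was present in 16.3% (11.7 to 21.8) against 26.1, 35.7 and 5.06%, and 7.81% of promoters. The ETS motif AGGAAG was present in 41.0% (34.5 to 47.7), against 29.7, 26.4 and 50.4%, and 35.4% of promoters. For the Runx motif TGTGGT the shares were 26.9% against 27.3, 22.2 and 32.4%, and 16.8% of promoters. For NFAT, GGAAAA, they were 25.6% against 32.1, 31.9 and 19.4%, and 23.4%. The E-box CAGNTG was present in 56.8%, against 57.6% of all regions and 51.4% of promoters. The GATA motif AGATAA was present in 17.6%, against 14.9 and 11.2%. For STAT, TTCNNNGAA, the shares were 11.5% against 12.5 and 8.30%. The KLF/SP motif GGGCGG had the widest gap to promoters, with 6.61% against 7.87% of all regions and 35.7% of promoters. For Egr, GCGTGGG, they were 3.52% against 2.68 and 5.04%. The CRE TGACGTCA was present in 1.76%, against 0.731 and 1.79%. Matches of 6 to 9 letters can overlap and occur by base composition. A match is not a binding site.

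The chromatin fragments, cut out by the Tn5 transposase where DNA is accessible, carry barcodes ending in 1 or 2. No source assigns an ending to a group, and the endings are therefore compared as such. Barcodes with at least 1000 fragments were used, 8565 of ending 1 and 7237 of ending 2, with medians of 7104 and 8591 fragments; 100 barcode sequences occurred with both endings. No doublets were called or removed here, and their treatment by the authors is not given in the sources used here. In the 227 regions, the median density was 7.16 in ending 1 and 11.0 in ending 2, as insertions per kb per 1000000 insertions of the ending. The other regions were less accessible, with medians of 1.19 and 5.40 (loss from 50 to below 80%), 0.286 and 1.71 (80% or more), and 4.56 and 2.33 (gain). At the region centres the mean was 13.0 and 16.99 for the 227 regions, and 3.87 and 4.24 at 2 kb from them. In ending 1, a peak was present at the 227 regions and at those that gained methylation, while the centres of both other classes (2.04 and 0.578) were below their edges (2.68 and 1.17).

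**Figure D3:**
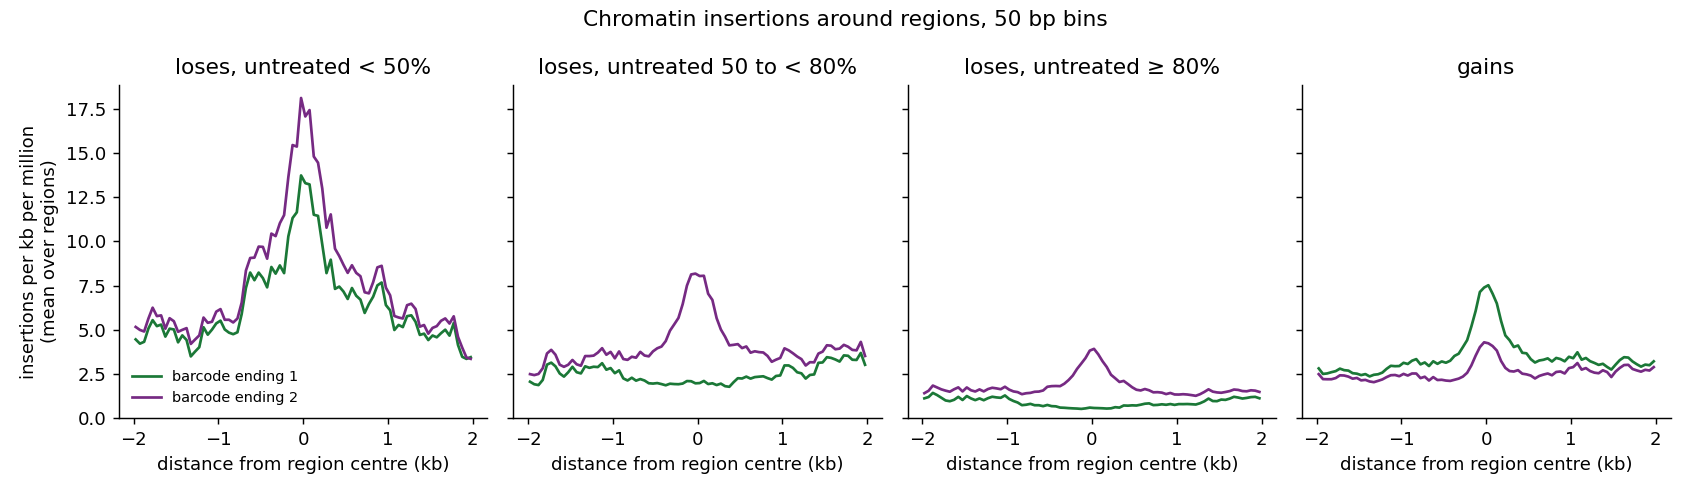
Mean insertion density, per kb per 1000000 insertions (y axis), in 50 bp bins up to 2 kb from the region centre (x axis, kb), for 4 classes of regions and both barcode endings. At the 227 regions the centre reaches 13.0 in ending 1 and 16.99 in ending 2, and at regions that lost methylation from 80% or more 0.578 and 3.69.

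In 93 of the 227 regions (41.0%), ending 2 was at least 1.5-fold over ending 1, a level passed by 58.2% of all regions, and in 6 (2.64%) ending 1 was at least 1.5-fold over ending 2, against 19.1% of all regions. These shares depend on the scale: after division by the median ratio over all regions (2.15), 32 (14.1%) and 129 (56.8%) of the 227 passed, against 39.4 and 38.5% of all regions. At a fold of 2 without this division, 55 (24.2%) and 2 (0.881%) passed, against 50.7 and 11.5%. In each setting the share towards ending 2 was lower in the 227 regions than over all regions. The median ratio of ending 2 over 1 was 1.29 in the 227 regions, 3.90 and 4.89 in those that lost methylation from 50 to below 80% and from 80% or more, and 0.597 in those that gained it. Among all regions that lost methylation, the median ratio was 1.15 in 78 regions below 20% and 1.29 in 43 at 20 to 30%. It was 1.30 in 41 at 30 to 40% and 1.68 in 65 at 40 to 50%. Above the limit it was 2.68 in 79 at 50 to 60% and 3.26 in 181 at 60 to 70%. It was 5.03 in 319 at 70 to 80% and 4.89 in 1177 at 80% or more.

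**Figure D4:**
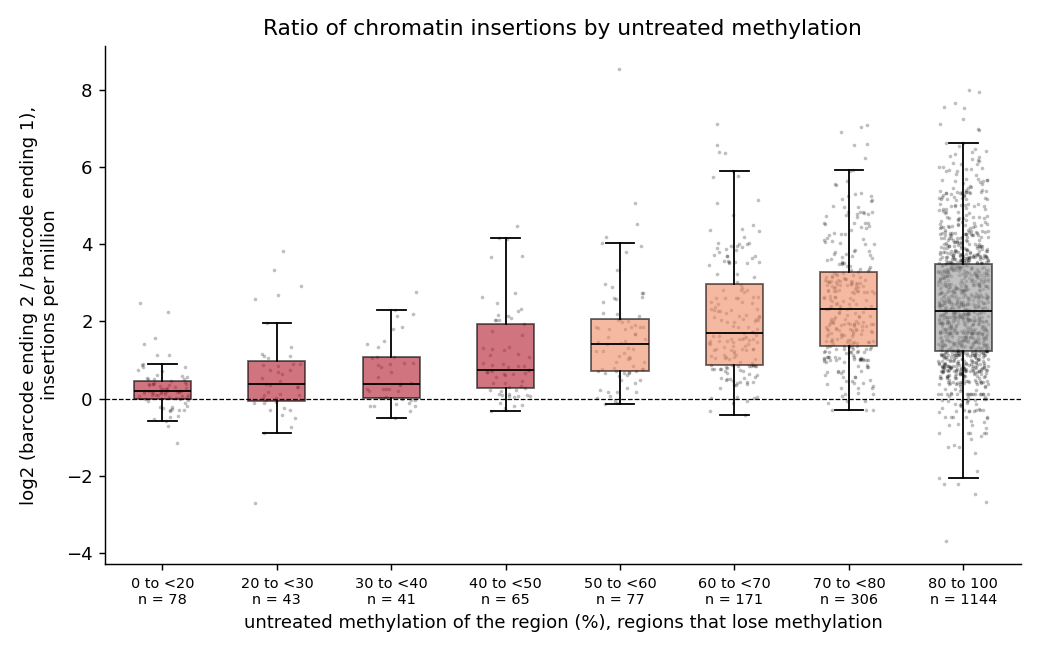
Log2 ratio of the insertion density in barcode ending 2 over ending 1 (y axis), by untreated methylation (x axis, %), for regions that lost methylation; points are regions, boxes show median and quartiles with whiskers to the last point within 1.5 box heights, and 58 regions with no insertion in an ending are not drawn. The median ratio, which also counts regions with insertions in only 1 ending, is 1.15 below 20% of untreated methylation and 5.03 at 70 to 80%.

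The 16 regions at TCR signalling genes had median insertion densities of 10.4 and 13.3. At the TSS of Zap70 the density was 49.2 in ending 1 and 51.6 in ending 2, at Cd3d 13.3 and 13.1, and at Lcp2 11.3 and 10.9. Ifng had 56.9 and 60.3 at its TSS, Stat4 42.0 and 34.3, and Cxcr6 42.1 and 33.9. Ratios past 1.5 were found at 2 of the 16 regions at TCR signalling genes, Cd3e (4.60 and 21.7) and Pdcd1 (3.75 and 15.4). This stands beside 41.0% of the 227 regions and 58.2% of all regions. At transcription factor genes 5 of 14 regions passed, and at genes associated with T-regulatory type 1 cells 3 of 4. At the intronic region of Tbx21 printed above the values were 10.6 and 17.2. Its other regions had 2.27 and 2.46, and 4.66 and 6.10. At Zbtb16 the intronic region had 11.8 and 21.6, and the one over a coding exon 4.29 and 4.55. The Trbj1 region with the largest loss was little accessible in either ending (0.663 and 0.778).

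The largest ratios were at Vdr (densities of 0.487 and 10.9, 22.4-fold), Col5a3 (17.8-fold), Casr (17.6-fold), Sbk1 (13.0-fold) and a place between genes on chromosome 17 (12.7-fold). Vdr was read in 0.304% of the barcodes of ending 1 and in 5.96% of those of ending 2. Sbk1 had 0.691 and 8.99. Col5a3 had 0.111 and 1.98 and Casr 0.117 and 2.05, from only 10 and 7 insertions in ending 1. The 4 genes, Vdr, Col5a3, Casr and Sbk1, all started close to the limit, with untreated means between 47.4 and 49.9%. The smallest ratios were at Slc2a10 (0.154; 1.60 and 0.247), at 2 places between genes, and at Mapre2 and Rbl1 (0.537 and 0.611).

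Untreated expression was read from 273 SmartSeq2 cells with 172559865 counts, as CPM of the counts summed over cells, with exact Poisson 95% intervals. Counts are reads, not molecules, and cells of the same mice are no replicates, so that the intervals cover counting error only. Of the 232 genes at the 227 regions, 57 had no count in untreated cells, and the median was 6.56 CPM, below the medians of 9.52, 7.15 and 9.13 CPM for all genes at regions that lost methylation from 50 to below 80% or from 80% or more, or gained it. The 100 genes of all types with one of the 227 regions within 2 kb of the TSS had a median of 3.33 CPM. The order of the classes was different for protein-coding genes. For the 158 of them, the median was 37.8 CPM, against 24.5 CPM at genes of regions that lost methylation from 50 to below 80%, 15.6 CPM from 80% or more, 18.3 CPM at genes of regions that gained it, and 0 over all 21897 protein-coding genes. Per kb of exons, the medians were 5.69, 3.28, 2.24 and 2.67 CPM per kb. The 43 protein-coding genes with a region within 2 kb of the TSS had a median of 98.2 CPM.

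**Figure D5:**
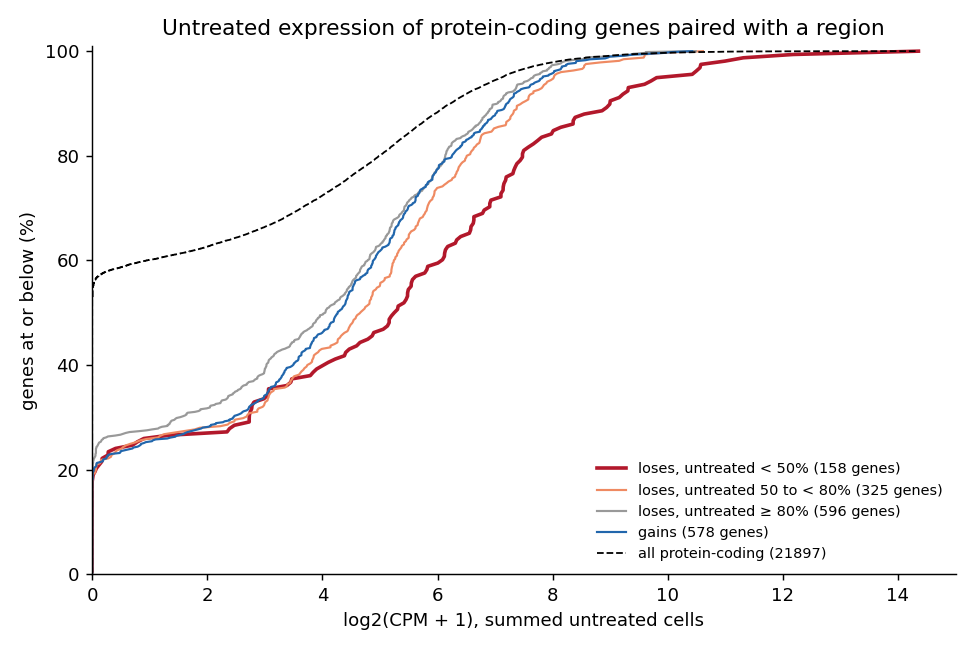
Cumulative share of protein-coding genes (y axis, %) by log2(CPM + 1) of summed untreated cells (x axis), for genes paired with each class of regions and for all protein-coding genes. The 158 genes at the 227 regions had a median of 37.8 CPM before the log, and 28 of them were at 0.

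The 10 protein-coding genes with most counts in untreated cells were Actb (20969.5 CPM), Cxcr6 (4638), Lck (2545), Il2rb (2042), Cd3g (1525), Itgb2 (1509), Ccnd3, which encodes cyclin D3 (1443), Skap1 (1374), Nfkbia, the inhibitor of NF-κB (895), and Cd3d (837). Per kb of exons the order changed: Actb (7827 CPM per kb) and Cxcr6 (2402) still led, followed by Lck (869), Nfkbia (556), Itgb2 (494) and Il2rb (476). In cells with at least 1 read, Actb was found in all 273, Il2rb in 82.1% (exact binomial interval 77.0 to 86.4), Cd3g in 78.8% (73.4 to 83.5) and Cxcr6 in 75.5% (69.9 to 80.4). The median number of genes with reads was 861 per untreated and 850 per treated cell. A share of cells with reads is therefore not the share that express a gene. The regions at Ccnd3 and Nfkbia had 20.5 and 3.11%, and 18.3 and 6.75% of methylation. By contrast, Zbtb16 had 45.7 CPM (44.7 to 46.7) in 4.40% of untreated cells, Ifng 136, Tbx21 463 and Pdcd1 34.8, and Vdr had no count in 273 cells. A count of 0 was given a floor of 3 counts (one-sided limit), and its two-sided exact Poisson interval reaches 0.0214 CPM.

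In the 251 treated cells, with 149084200 counts, 39 of the 180 genes with at least 10 summed counts over both groups were at least 2-fold higher than in untreated cells on the scale of CPM plus 1 (21.7%, against 20.1% of all 15052 genes tested), and 19 at least 2-fold lower (10.6%, against 17.2%). The median log2 ratio was 0.13, and 0.02 over all genes. Of the 14 TCR signalling genes, 1 was past 2-fold: Pdcd1, from 34.8 to 794 CPM (log2 ratio 4.47), with reads in 48 treated cells that also had Cd3e or Trac, of 49 in all, and 1 of the 49 with a hepatocyte marker. Cd3e (335 and 398 CPM), Cd3d (837 and 873), Zap70 (570 and 919), Lck (2545 and 2856) and Lcp2 (636 and 700) were within it. So were Tbx21 (463 and 432), Ifng (136 and 192) and Zbtb16 (45.7 and 71.9). With 1 sample per group, none of these differences has an error between mice.

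Itga4, an integrin chain, had 28.1 and 292 CPM (log2 ratio 3.33), and of its 57 treated cells 52 also had reads on Cd3e or Trac, 3 on a macrophage marker and 1 on a hepatocyte marker. The largest ratio was that of Vdr, with 0 counts in untreated cells and 68.9 CPM (67.5 to 70.2) in treated cells. Against a floor of 3 counts over the untreated cells this is 3961-fold. That figure treats reads as independent and is no lower bound on the difference in expression. The reads came from 11 treated cells (4.38%, 2.21 to 7.71), and the interval for untreated cells reaches 1.34%. Of the 11 cells, 10 had Cd3e or Trac and none a macrophage or hepatocyte marker. Rcan1 (0.00580 and 37.9 CPM) had reads in 3 treated cells, 2 of them with a macrophage marker. Apoh, a gene of hepatocytes, was at 0 and 25.3 CPM and came from 1 treated cell, which also had hepatocyte markers. Bach2, a repressor that restrains T cell differentiation, and Fbxo11 had 0.0522 and 31.0 CPM, and 0.127 and 27.5 CPM, from 8 and 4 treated cells, with 1 of the latter 4 holding a macrophage marker. The lowest ratios were those of Tbc1d16 (13.9 and 0 CPM, from 3 untreated cells), Coro1c (46.4 and 3.04 CPM), Phtf1 (9.94 and 0.282), Wwox (12.8 and 0.879) and Bhlhe40 (327 and 84.5). Except for Bhlhe40, found in 37 untreated and 20 treated cells, and Coro1c, in 11 and 5, these came from at most 3 cells per group. Cxcr6 was lower as well, with 4638 and 2025 CPM (log2 ratio -1.20) and reads in 75.5 and 45.4% of cells.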

How the data were processed

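Whole genome bisulfite reads were filtered by the authors, mapped to mm10 (GRCm38) with BSMAP, freed of duplicates and kept where unique, and differentially methylated regions were called with metilene. The deposited methylation values are fractions (methylated reads over all reads), 1 per group and region or cytosine, and were printed as percent. Several sorted samples per group are described. How they became 1 value, and the read depth, are not given in the sources used here. The authors' difference and q-value columns of the region table were not used. SmartSeq2 reads were mapped by the authors with STAR to GRCm38, and the deposited counts are reads per gene and cell without molecular identifiers. Only cells that the study placed in a sub-cluster were used (273 of 284 untreated and 251 of 282 treated). Chromatin fragments came from Cell Ranger ARC; the deposited counts of read pairs per fragment were not used as values, and both ends of each of 167180637 fragments were taken as insertions.

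Regions were paired with GENCODE genes whose body they overlapped or whose TSS lay within 2 kb. Counts were summed over cells and given as CPM; log2 ratios used a prior of 1 CPM and genes with at least 10 summed counts. Intervals are exact (binomial or Poisson) at 95% and cover counting error only. Every data kind used here has 1 sample per group, so no test was made. The calculations were tested on simulated data. Python 3.11.15, pandas 2.3.3, numpy 2.4.6 and scipy 1.17.1 were used. The members and gene lists were chosen with earlier results of these data known. Genes were named if they stood in a list and were paired with one of the regions, or lay at the 10 largest losses, the 5 lowest untreated means, the 5 regions with most CpG cytosines, the 5 regions on each side of the limit, or the 5 largest and 5 smallest ratios of barcode endings (at least 100 insertions), or were among the 10 highest in untreated CPM or the 5 largest differences in each direction (at least 500 summed counts). Alternatives changed the limit, the source of the means, the minimum of CpG cytosines, the definitions of promoter and gene, the cells, the prior, the fold, the scaling and the motif window. The bulk ATAC-seq, ChIP-seq and 10X RNA samples were not analysed here. One gene of the TCR signalling list is counted with its list but not reported by name here.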

Additional observations from a re-analysis of the deposited data

How the results depend on the processing

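Of 50 alternatives over 25 results, 26 left the value within its interval or within 1.5 times the count, and 24 moved it; 1, the rank of Actb by cytosine means, was chosen after seeing the data. The 26 include the ratio of chromatin density to that 5 to 10 kb away, with medians of 7.02 in ending 1 and 11.2 in ending 2. This ratio has no unit and was set against the interval of a density, so that it cannot show agreement. No paired analysis was possible because each group has 1 value and no result comes from a test. With regions of at least 20 CpG cytosines, 111 regions remained in number, with a treated median of 10.3%. Limits of 0.4 and 0.6 in place of 0.5 gave untreated medians of 21.5 and 37.2% and treated medians of 4.68 and 12.0%, as the limit itself sets them. With 500 bp added on either side the median CpG density was 1.47 per 100 bp. The share at a promoter was 16.3% for 2 kb upstream only and 17.6% for protein-coding genes only, and that in a gene body 68.7% for protein-coding genes only. Scaled by the median ratio over all regions, 32 regions passed 1.5-fold towards ending 2 and 129 towards ending 1 (39.4 and 38.5% of all regions did); at a fold of 2, 55 and 2 did (50.7 and 11.5% of all). Genes of all types paired by promoter only had a median of 3.33 CPM in place of 6.56, and with a prior of 5 CPM 12 genes (6.67% of those tested) were at least 2-fold lower, against 10.8% of all genes tested. In 200 bp windows the motif shares were smaller, as a shorter window holds fewer matches: AP-1 10.1%, Runx 18.9%, ETS 29.96%, NFAT 16.3%, E-box 39.2%, GATA 12.3% and STAT 7.49%. The T-box share (7.05%) and those of KLF/SP (4.85%), Egr (2.20%) and CRE (0.881%) were also smaller but stayed within their intervals. For the other moved values the cause was not tested. Without replicates no value has an error between mice, and without read depth none of the methylation levels has a counting interval.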
